A study of Homo sapiens with 6 samples.

Results

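The 10 genes described here encode 3 families of transcriptional regulators that set the course of muscle differentiation, namely the myogenic regulatory factors (MYOD1, MYOG, MYF5 and MYF6), the MEF2 factors (MEF2A, MEF2C and MEF2D) and the ID proteins (ID1, ID2 and ID3). Members were the rows of the deposited table whose symbol equals one of these names, and all 10 were found among its 35268 named genes. mRNA was sequenced from Rh30 cells, an established cell line from a fusion-positive rhabdomyosarcoma, a tumor driven by the PAX3-FOXO1 oncofusion. In the first group, 3 samples received the vehicle DMSO, and in the second, 3 samples received 1 µM YK-4-279 dissolved in DMSO, each for 24 hours. YK-4-279 is a small molecule that interferes with protein interactions of ETS transcription factors. All libraries came from this single cell line and carry the oncofusion, and no library from cells without it was included.

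Myogenic regulatory factors are basic helix-loop-helix (bHLH) proteins that pair with E proteins and bind a short DNA element, the E-box, at muscle genes. MYOD1 and MYF5 commit cells to the muscle lineage, MYOG drives terminal differentiation, and MYF6 is used mainly in differentiated muscle. MEF2 factors bind an A/T-rich element and act together with the myogenic factors, while ID proteins carry the helix-loop-helix but no DNA-binding region, so that they sequester E proteins and hold back differentiation. Rhabdomyosarcoma cells keep high MYOD1 and MYOG, which are used as diagnostic markers, yet fail to complete differentiation.

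The promoters of the ID genes and of MYOG are shown because ID2 held the main change and because the proximal MYOG promoter is where bHLH and MEF2 input to this network is best known. RefSeq (GRCh38.p14) held promoter entries for 9 of the 10 members. The sequences are the 250 bases before the start in RefSeq, 5′ to 3′ on the transcribed strand, at chr2:8681806-8682055 (plus strand) for ID2, chr20:31605039-31605288 (plus) for ID1, chr1:23559502-23559751 (minus) for ID3 and chr1:203086013-203086262 (minus) for MYOG. Gene positions given further on are from GENCODE 44, which starts ID2 and ID1 farther upstream, so that the ID2 window lies inside the GENCODE gene and the ID1 window reaches past its start. Capitals mark 4 elements, searched on both strands. The E-box was searched as CANNTG. The CCAAT box was searched by the letters of its name. The CRE half-site was searched as TGACG. The last is a MEF2 consensus element whose final base was left free, and no marked elements overlap.
ID2: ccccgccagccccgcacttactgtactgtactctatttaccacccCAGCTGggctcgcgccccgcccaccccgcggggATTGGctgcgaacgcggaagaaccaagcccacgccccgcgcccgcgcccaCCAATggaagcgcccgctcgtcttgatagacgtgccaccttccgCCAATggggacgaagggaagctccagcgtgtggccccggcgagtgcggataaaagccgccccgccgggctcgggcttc
ID1: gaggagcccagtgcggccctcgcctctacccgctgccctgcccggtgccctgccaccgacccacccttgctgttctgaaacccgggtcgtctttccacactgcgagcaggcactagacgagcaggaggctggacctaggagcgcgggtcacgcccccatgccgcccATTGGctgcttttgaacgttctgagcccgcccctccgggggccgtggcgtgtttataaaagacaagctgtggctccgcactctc
ID3: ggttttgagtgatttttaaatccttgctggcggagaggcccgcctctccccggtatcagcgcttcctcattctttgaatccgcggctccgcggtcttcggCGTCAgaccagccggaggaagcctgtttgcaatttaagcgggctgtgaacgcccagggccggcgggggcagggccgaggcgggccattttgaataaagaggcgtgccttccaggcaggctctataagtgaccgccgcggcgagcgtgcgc
MYOG: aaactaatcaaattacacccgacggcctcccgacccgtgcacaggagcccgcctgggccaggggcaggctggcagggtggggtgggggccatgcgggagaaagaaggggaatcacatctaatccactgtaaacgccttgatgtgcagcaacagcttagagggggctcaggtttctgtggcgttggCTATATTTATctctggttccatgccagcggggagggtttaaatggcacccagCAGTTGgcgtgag

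The ID2 promoter held 3 CCAAT boxes and 1 E-box, whose first bases lay 172, 122, 78 and 205 bases before the start. The ID1 promoter held 1 CCAAT box, 84 bases before the start, and the ID3 promoter held neither element but 1 CRE half-site. In MYOG an E-box lay 13 bases and the MEF2 element 65 bases before the start. Of 34788 human promoter windows of the same length, 61.8% held an E-box, 32.0% a CCAAT box, 21.2% a CRE half-site and 6.53% the MEF2 element. The ETS motif CCGGAA, held by 14.5% of the windows, and the SMAD motif GGCGCC, held by 16.4%, matched in none of these 4 sequences. The strict MEF2 consensus (2.82% of windows) did not match in them either, and the last base was freed after that search. These matches describe letters in the reference and not bound sites.

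The libraries held between 16724650 and 24677433 reads on named genes. DMSO replicate 1, the shallowest, stood apart from the others, with a mean correlation of 0.989 across genes against at least 0.992 for each other library and 6.05% mitochondrial reads against 4.74% to 5.03%, so the log2 fold change of each tested member is also given without it. The 6 muscle lineage markers DES, MYOD1, MYOG, CDH15, CHRNA1 and CHRND summed to between 73177 and 86433 normalized counts per library. The 8 markers of epithelium, blood, endothelium, fat and liver summed to between 72.6 and 121, with ADIPOQ at 0 in every library, CDH1 and PTPRC at 0 in the DMSO libraries and CD3E at 0 in the drug-treated libraries. Their sum was 72.6 to 95.8 with DMSO and 90.2 to 121 with YK-4-279, mostly from EPCAM (50.1 to 64.3 and 59.8 to 88.3). The part of these markers in the results below was not tested.

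To compare levels between genes, reads were scaled to the length of the gene's exons and to the library's reads on named genes (RPKM). MYOD1 had the highest level of the 10 members, 989 ± 72.5 with DMSO (SD, n = 3), and MYOG followed at 441 ± 79.6. ID3 and ID1 came next, at 166 ± 21.5 and 58.1 ± 2.77. MEF2C, MEF2A and MEF2D lay close together at 9.79 ± 1.04, 8.41 ± 0.595 and 7.65 ± 0.446, and ID2 was at 4.74 ± 0.207. Libraries of neighbors in this order did not overlap except between MEF2C and MEF2A, between MEF2A and MEF2D and between MYF6 and MYF5. MEF2C and MEF2D did not overlap, and within each DMSO library the order was MEF2C, MEF2A, MEF2D. Among 33180 genes with a length, MYOD1 ranked at position 3 in the DMSO libraries by this length and at position 46 when every gene was scaled by its MANE Select or longest transcript, so that such ranks depend on the lengths given to other genes. By transcript length MEF2C, ID1, ID2 and ID3 had levels of 15.8, 72.8, 8.08 and 262, and the order of the 10 members with DMSO was kept.

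**Figure D1:**
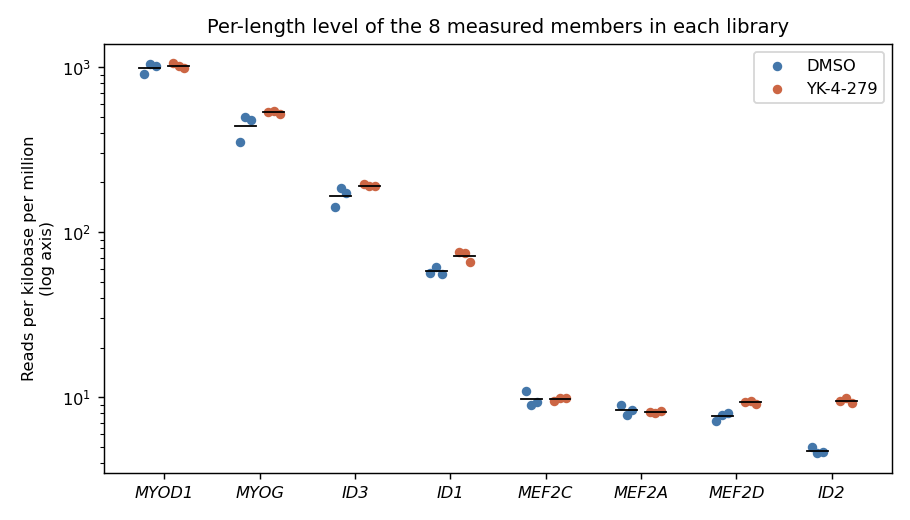
Per-length levels (RPKM, log axis) of the 8 members with a mean of at least 10 normalized counts, in 3 DMSO and 3 YK-4-279 libraries, with points for libraries and black lines for group means. MYOD1 and MYOG lie highest, and ID2 is lowest with DMSO (4.74) but within the range of the MEF2 genes with YK-4-279 (9.49).

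With YK-4-279 the order of the upper 5 members was the same, and ID2 moved from below the MEF2 genes into their range by exon length. By transcript length its DMSO libraries (8.47, 7.78 and 7.99) already overlapped those of MEF2D (7.70, 8.33 and 8.64), so that the lower position depends on the length used. ID2 reached 9.43, 9.86 and 9.18 RPKM in the drug-treated libraries. Those libraries overlapped the libraries of MEF2C and of MEF2D, from which ID2 was not resolved in level, while MEF2A had at most 8.28. By transcript length the level of ID2 with YK-4-279 was 16.2 and that of MEF2C 15.8, with overlapping libraries, so that their order was not resolved.

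MYF5 and MYF6, the remaining myogenic factors, were at or near 0. MYF5 lies on chromosome 12 from 80716912 to 80719671. It had 0 reads in 5 libraries and 2 reads in drug-treated replicate 1. MYF6, its neighbor from 80707634 to 80709474, had 0 or 1 read in each library. A count of 0 allows up to 3 reads, which for MYF5 corresponds to between 0.0789 and 0.116 RPKM in the DMSO libraries, against 989 for MYOD1. At this depth no difference in MYF5 or MYF6 between the groups was detectable, and they were left out of the tests.

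Differences between the groups were tested in the other 8 members with limma on log2(normalized count + 1), fitted over all 13930 genes with a mean of at least 10 and adjusted over all of them. ID2 alone among the members passed at an adjusted p-value under 0.05, and it rose. That is 1 of 8 members tested, while 3.41% of all genes tested passed, 1.26% being higher and 2.15% lower with YK-4-279. Higher genes thus made up 37.1% of the calls, and 47.7% of them with quantile normalization. When DMSO replicate 1 was left out, 3 of the 8 members (ID1, ID2 and MEF2D) and 13.1% of all genes tested passed. On the recovered reads edgeR called 2 members and 3.34% of all genes, and DESeq2 called 3 members and 4.47% of all genes. In 4 members, MYOG, MEF2D, ID1 and ID2, each drug-treated library lay above each DMSO library, and in no member did all lie below. Over all genes tested, 26% did not overlap between the groups and 10.9% did so with the drug-treated libraries higher.

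ID2, which inhibits E proteins and is a classical target of BMP signaling, lies on chromosome 2 from 8678845 to 8684461 of hg38. The DMSO libraries held 232, 210 and 214 normalized counts of ID2, and the libraries with YK-4-279 held 416, 444 and 404 (replicates 1, 2 and 3 in order, as in all such lists here). All drug-treated libraries were far above all DMSO libraries, with a gap wider than the range within either group. The level rose 1.92-fold, a log2 fold change of 0.94 (standard error 0.094, 95% interval 0.74 to 1.15, limma adjusted p = 0.00028). The log2 fold change of ID2 was 0.99 when DMSO replicate 1 was left out. Among the 13930 genes tested the change was rank 105 by size of change and rank 6 by p-value. The counts rest on 184, 210 and 256 reads with DMSO and 485, 409 and 404 reads with YK-4-279. Between replicates ID2 varied by 5.41% (coefficient of variation) with DMSO and 4.92% with YK-4-279, close to the 6.79% and 4.81% that counting reads alone would give. ID2 overlaps the antisense gene ID2-AS1 and has a processed pseudogene, ID2B, so that shared reads are possible.

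ID1 and ID3 are close relatives of ID2 and the more abundant ID genes of these cells. ID1 lies on chromosome 20 from 31605283 to 31606515. Its libraries held 1478, 1567 and 1425 normalized counts with DMSO and 1852, 1878 and 1623 with YK-4-279. The groups did not overlap, but the lowest drug-treated library lay near the highest DMSO library. Its log2 fold change of 0.26 (standard error 0.072, 95% interval 0.10 to 0.41) did not pass the threshold (limma adjusted p = 0.0694), and it did without DMSO replicate 1 (0.25, limma adjusted p = 0.000605). It also passed with edgeR (adjusted p = 0.0495) and DESeq2 (adjusted p = 0.0213) on the recovered reads.

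ID3 lies on chromosome 1 from 23557926 to 23559501. Its libraries held 4496, 5721 and 5315 normalized counts with DMSO and 5803, 5798 and 5638 with YK-4-279. The groups overlapped, and DMSO replicate 1 was the low library. For ID3 the log2 fold change was 0.16 (standard error 0.076, 95% interval -0.0070 to 0.32, limma adjusted p = 0.289), and without DMSO replicate 1 it was 0.059 (limma adjusted p = 0.384).

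The makeup of the ID family shifted toward ID2, although ID2 stayed its smallest part. ID2 made up 2.43%, 1.83% and 2.01% of the summed per-length level of the 3 ID genes with DMSO and 3.37%, 3.59% and 3.47% with YK-4-279. The per-length ratio of ID2 to ID1 went from 0.0819 ± 0.0066 to 0.132 ± 0.0069 and that of ID2 to ID3 from 0.0290 ± 0.0053 to 0.0496 ± 0.0019 (SD, n = 3 each). The groups did not overlap in either ratio. The size of these shares and ratios depends on the lengths given to the genes. ID3 remained the bulk of the family in both groups, at 72.5% ± 2.35 and 70.1% ± 1.24.

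**Figure D2:**
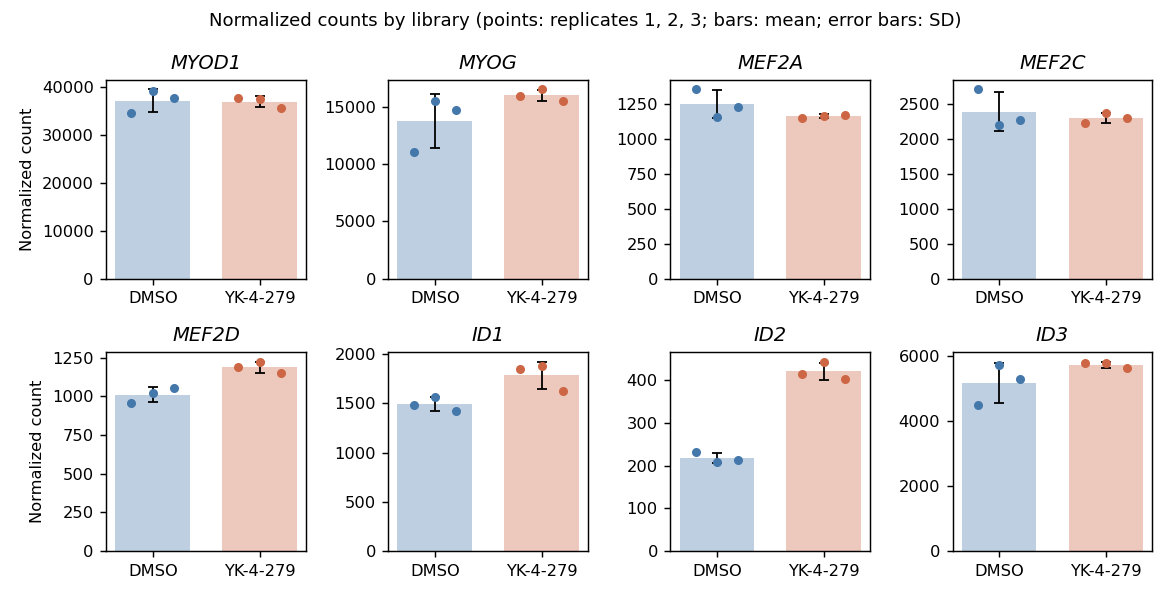
Normalized counts (axes from 0) of the 8 tested members in each library, with bars for group means, error bars for the SD (n = 3) and points for replicates 1, 2 and 3 from left to right. ID2 stands clear of its DMSO libraries (219 ± 11.8 against 421 ± 20.7), and DMSO replicate 1 is the lowest DMSO point in MYOD1, MYOG, MEF2D and ID3 and the highest in MEF2A, MEF2C and ID2.

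MYOD1, the lineage factor, lies on chromosome 11 from 17719571 to 17722136. It had 34516, 39146 and 37694 normalized counts with DMSO and 37701, 37356 and 35548 with YK-4-279. The drug-treated libraries lay within the range of the DMSO libraries. The log2 fold change was -0.01 (standard error 0.061, limma adjusted p = 0.963), and its sign turned with TMM or quantile scaling, with edgeR and with DESeq2. Without DMSO replicate 1 it was -0.06. The 95% interval from -0.14 to 0.12 left out changes as large as that of ID2.

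MYOG, the terminal differentiation factor, lies on chromosome 1 from 203083129 to 203086012. It had 11115, 15556 and 14759 normalized counts with DMSO and 15984, 16587 and 15558 with YK-4-279. The groups barely missed each other, and DMSO replicate 1 was far below the other DMSO libraries. For MYOG the log2 fold change was 0.23 (standard error 0.097, 95% interval 0.022 to 0.44) and did not pass (limma adjusted p = 0.224). Without DMSO replicate 1 it was 0.082 (limma adjusted p = 0.196). Among the 8 tested members MYOG had the highest coefficient of variation within a group, with a coefficient of variation of 17.1% with DMSO against 3.22% with YK-4-279, where counting alone would give 0.845% and 0.779%.

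The per-length ratio of MYOG to MYOD1 did not overlap between the groups, though neither gene passed on its own in the limma fit over all libraries. The per-length ratio of MYOG to MYOD1 was 0.385, 0.475 and 0.468 with DMSO and 0.507, 0.531 and 0.524 with YK-4-279. Each drug-treated library lay above each DMSO library, also when DMSO replicate 1 is set aside. The summed level of the ID genes was 16.2%, 16.2% and 15.7% of that of the myogenic factors with DMSO. With YK-4-279 it was 17.7%, 17.7% and 17.5%, a small difference with little spread. By transcript length ID3 with DMSO was at 262 instead of 166, while MYOD1 and MYOG kept their levels. These percentages thus depend on the length used. Other ratios differed in this respect. That of ID1 to ID3 overlapped, with 0.399, 0.332 and 0.325 with DMSO and 0.387, 0.393 and 0.349 with YK-4-279. That of MEF2C to MEF2A also overlapped, while that of MEF2D to MEF2C did not. Among single genes tested, 26% did not overlap between the groups. These ratios combine members and were given no test.

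The MEF2 genes showed small differences of unlike sign. MEF2D lies on chromosome 1 from 156463727 to 156500779. Its libraries held 960, 1022 and 1052 normalized counts with DMSO and 1188, 1225 and 1151 with YK-4-279. All drug-treated libraries were above all DMSO libraries. Its log2 fold change of 0.23 (standard error 0.068, 95% interval 0.086 to 0.38) missed the threshold in limma (adjusted p = 0.0805) and passed without DMSO replicate 1 (0.195, limma adjusted p = 0.0101) and with DESeq2 (adjusted p = 0.0494).

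MEF2C, needed for muscle and heart development, lies on chromosome 5 from 88717117 to 88904257. It had 2718, 2198 and 2274 normalized counts with DMSO and 2232, 2372 and 2310 with YK-4-279. DMSO replicate 1 was the highest library, and the groups overlapped. For MEF2C the log2 fold change was -0.05 (95% interval -0.22 to 0.12, limma adjusted p = 0.771), and without DMSO replicate 1 it turned to 0.044. MEF2C-AS1 and MEF2C-AS2 overlap it on the other strand, with at most 28.3 and 5.84 normalized counts, and whether counting used strand is not given in the sources used here.

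MEF2A, the broadly expressed member, lies on chromosome 15 from 99565417 to 99716488. It had 1355, 1158 and 1232 normalized counts with DMSO and 1148, 1166 and 1174 with YK-4-279. The groups overlapped, with a log2 fold change of -0.10 (95% interval -0.25 to 0.055, limma adjusted p = 0.483), and without DMSO replicate 1 it was -0.039. Within the family the per-length ratio of MEF2D to MEF2A went from 0.795, 0.991 and 0.959 with DMSO to 1.16, 1.18 and 1.10 with YK-4-279, without overlap. MEF2D thus lay below MEF2A in each DMSO library and above it in each drug-treated library. By transcript length it was below MEF2A in level in both groups, so that the crossing depends on the length used, while the shift does not. MEF2A overlaps LYSMD4, which had 284 to 313 normalized counts, on the other strand.

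**Figure D3:**
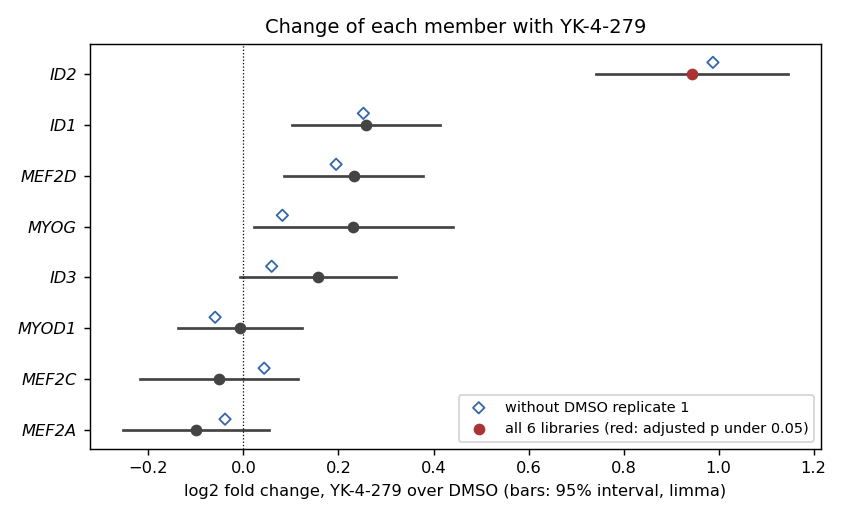
The log2 fold change of YK-4-279 over DMSO for the 8 tested members, with 95% intervals from limma (circles, all 6 libraries, red for an adjusted p-value under 0.05) and values without DMSO replicate 1 (diamonds). ID2 lies at 0.94 and alone passes, ID1 and MEF2D stay near their position without DMSO replicate 1 (0.25 and 0.19), and MYOG and ID3 move toward 0.

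The sign of the members' difference in DMSO replicate 1 split by the GC content of their transcripts, while its size did not follow GC content among the members with high values. MEF2C, MEF2A and ID2, with a GC content of 38.1%, 40.6% and 42.5%, were higher in DMSO replicate 1 than in the mean of DMSO replicates 2 and 3, by 0.28, 0.18 and 0.13 on the log2 scale. MYOD1, MYOG, MEF2D, ID3 and ID1, with 56.7% to 65.6%, were lower, by log2 differences from -0.45 in MYOG to -0.016 in ID1. All genes tested showed the same order, with a median difference of 0.21 in 2290 genes under 40% GC and -0.28 in 2128 genes of at least 60% (Pearson r across 13705 genes -0.512, genes not being independent). With the dependence on GC content and gene length taken out per library, ID2 had a log2 fold change of 0.99, MYOG 0.19, MEF2D 0.21 and ID1 0.22, each with a limma adjusted p-value under 0.05, while MEF2C had 0.026. These are 4 of the 8 members, against 11.2% of all genes in the same fit. The part of GC content in the spread of the members was not tested beyond this fit.

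**Figure D4:**
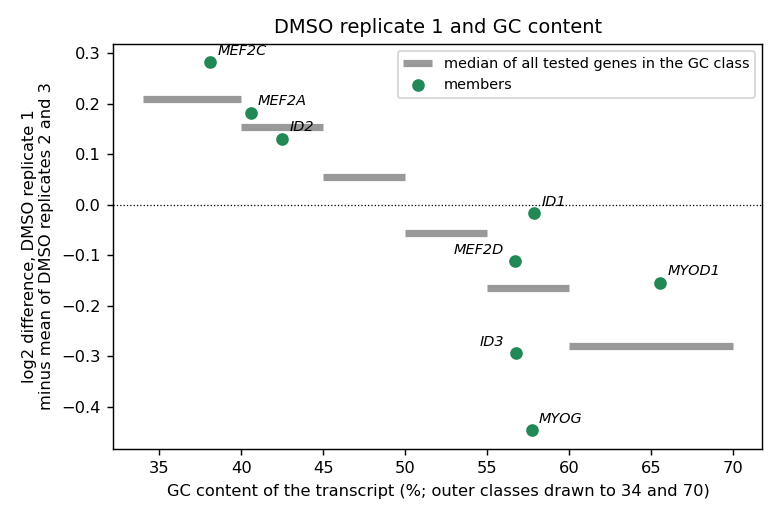
Difference between DMSO replicate 1 and the mean of DMSO replicates 2 and 3 (log2 scale) against the GC content of the transcript (%), for the 8 tested members (points) and as the median of all tested genes in each GC class (gray bars). Members with low GC content lie above 0 and those with high GC content below 0, as the medians of all genes do.

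E proteins are the partners for which myogenic factors and ID proteins compete, and none of the 3 passed the test in limma, edgeR or DESeq2 or had an unadjusted limma p-value under 0.05. TCF12, the one with the highest mean, had 5603, 4499 and 4559 normalized counts with DMSO and 4752, 5001 and 4706 with YK-4-279. Its log2 fold change was -0.01 (95% interval -0.18 to 0.15, limma adjusted p = 0.954), and those of TCF3 and TCF4, given because the list is so short, were -0.02 and -0.00075. Without DMSO replicate 1 the values of TCF12 and TCF4 turned to 0.089 and 0.079, and that of TCF3 was -0.10. The median of the 3 was -0.013, beside -0.0075 over all genes tested, and it turned to 0.079 without DMSO replicate 1, 0.0024 with TMM scaling, 0.040 with quantile normalization, 0.00032 with edgeR and 0.057 with GC content and length trends taken out.

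Among 12 tested genes that oppose myogenic factors at E-boxes or bind bHLH proteins, 1 rose and none fell by the test, beside 1.26% higher and 2.15% lower over all genes. BHLHE40, a bHLH repressor that also acts in the circadian clock, had 252, 215 and 208 normalized counts with DMSO and 312, 325 and 289 with YK-4-279. The groups did not overlap, and it rose by 0.46 on the log2 scale (standard error 0.11, limma adjusted p = 0.0349). MDFI, an inhibitor of myogenic factors and the list's most abundant gene, had a log2 fold change of 0.03 (limma adjusted p = 0.895), which turned to -0.10 without DMSO replicate 1. The list's median was 0.074. Without DMSO replicate 1, 2 of the 12 genes passed, against 13.1% of all genes.

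BMP signaling through SMAD proteins is the best known inducer of ID genes. Of 19 tested genes of this pathway 1 rose and none fell by the test, beside 1.26% higher and 2.15% lower over all genes, and the median was 0.038 against -0.0075. A single call among so few genes is near that background. SMAD7, an inhibitory SMAD that is itself induced by the pathway, had 180, 243 and 228 normalized counts with DMSO and 344, 273 and 337 with YK-4-279. Its groups did not overlap, and it rose by 0.55 on the log2 scale (standard error 0.13, limma adjusted p = 0.0360). ATOH8, the most abundant gene of the list, had a log2 fold change of 0.04 (limma adjusted p = 0.791), which turned to -0.02 without DMSO replicate 1.

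Other inhibitors of the BMP pathway did not pass in the limma fit over all libraries and lay in both directions. The genes in this paragraph were picked after their values were seen. NOG, a secreted BMP antagonist, had 721, 824 and 734 normalized counts with DMSO and 984, 951 and 873 with YK-4-279 (log2 fold change 0.30, limma adjusted p = 0.0560). On the recovered reads NOG passed with edgeR (adjusted p = 0.0436) and DESeq2 (adjusted p = 0.0185). Each of these tools called 2 of the 19 genes, against 3.34% and 4.47% of all genes. SMAD6, an inhibitory SMAD, had 0.27 (limma adjusted p = 0.0860), and BAMBI, a decoy receptor, had 0.50 (limma adjusted p = 0.0902). In these 3 genes each drug-treated library lay above each DMSO library, as in 10.9% of all genes tested. GREM1, another secreted BMP antagonist, had the opposite pattern, with 2943, 2813 and 2836 normalized counts with DMSO and 2544, 2597 and 2577 with YK-4-279 (log2 fold change -0.15, limma adjusted p = 0.157). CHRDL1, also a secreted antagonist, overlapped between the groups (log2 fold change 0.10, limma adjusted p = 0.876). The receptor BMPR1A was also lower in each drug-treated library, with a log2 fold change of -0.26 (limma adjusted p = 0.0942). Without DMSO replicate 1, 6 of the 19 genes passed, against 13.1% of all genes. SMAD7, NOG, SMAD6 and BAMBI were higher (limma adjusted p = 0.00261, 0.00204, 0.0187 and 0.0356), and GREM1 and BMPR1A were lower (limma adjusted p = 0.0294 and 0.0302).

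Regulators of MEF2 activity and regulators upstream of the myogenic factors held no gene past the threshold in limma, edgeR or DESeq2, and 4 of 11 and 1 of 15 had an unadjusted limma p-value under 0.05, against 2600 of 13930 over all genes. Of 11 tested MEF2 cofactors and repressors, 9 had a log2 fold change above 0, beside 6684 of 13930 over all genes, with a median of 0.070 against -0.0075, and CREBBP, a coactivator with the highest mean, had 0.05 (limma adjusted p = 0.674). Of 15 tested upstream regulators, 11 were above 0, with a median of 0.051, and PITX3, the most abundant, had 0.09 (limma adjusted p = 0.605), which turned to -0.03 without DMSO replicate 1. In that fit 3 of the 11 and 1 of the 15 genes passed, against 13.1% of all genes.

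Genes that the myogenic factors and MEF2 activate had calls in both directions, and most had a log2 fold change above 0. Of 31 tested, 3 rose and 1 fell by the test, beside 1.26% higher and 2.15% lower over all genes. Of the 31, 26 had a log2 fold change above 0, beside 6684 of 13930 over all genes, with a median of 0.21 against -0.0075. An unadjusted limma p-value under 0.05 was held by 16 of the 31, against 2600 of 13930 over all genes. Without DMSO replicate 1, 8 of the 31 passed, 5 higher and 3 lower, against 13.1% of all genes. KLHL41, a sarcomere-associated Kelch protein, ACTC1, the cardiac alpha-actin of developing muscle, and MYLPF, a fast myosin light chain, rose by 0.79, 0.37 and 0.62 on the log2 scale (limma adjusted p = 0.0103, 0.00528 and 0.0392). JPH1, which joins the junctional membranes of skeletal muscle, had 559, 480 and 510 normalized counts with DMSO and 374, 411 and 380 with YK-4-279. It fell by 0.41 on the log2 scale (limma adjusted p = 0.0247), without overlap between the groups. The median was 0.11 without DMSO replicate 1 and 0.091 among genes with a mean of at least 100. Reads of near-identical actin genes can be split in counting, so that ACTC1 is uncertain.

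**Figure D5:**
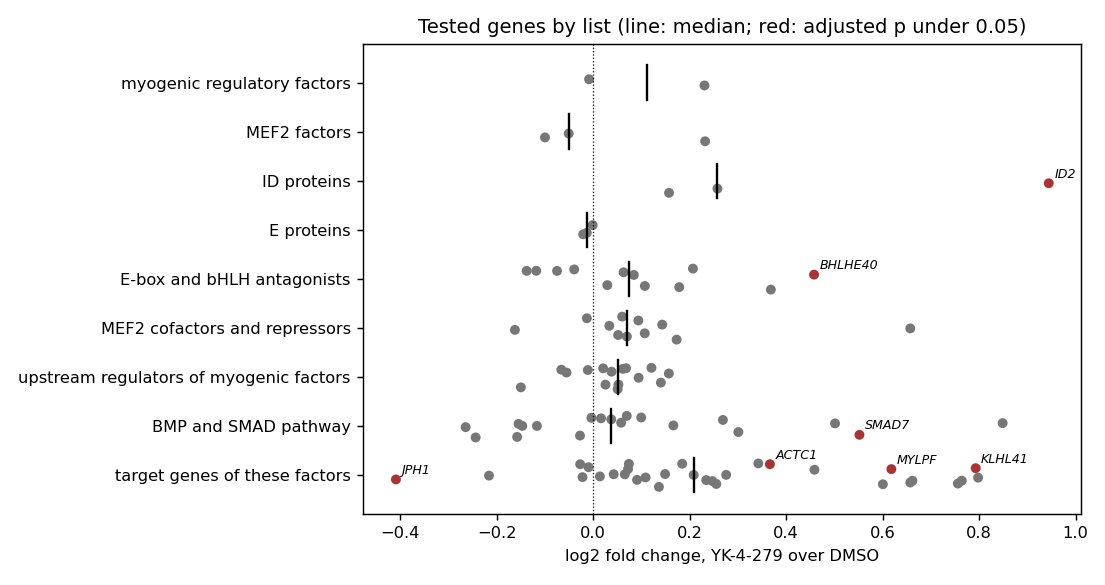
The log2 fold change of YK-4-279 over DMSO of every tested gene in the 3 member families and 6 lists of related genes (points, spread vertically at random), with black lines for medians and red points, named, for adjusted p-values under 0.05. ID2 is the point farthest to the right at 0.94, and the calls in the other lists are BHLHE40, SMAD7, ACTC1, MYLPF and KLHL41 (higher) and JPH1 (lower).

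The genes whose pattern over the 6 libraries was most like that of a member were named for the most abundant member of each family and, added after its change was seen, for ID2. Among 10698 genes with a mean of at least 100, MYOD1 correlated best with ZNF689, SCAF1 and CNN2 (Pearson r 0.997, 0.995 and 0.994). MEF2C correlated best with ATP6V1A, ADGRL2 and TRIP12 (r 0.998, 0.998 and 0.997), and ID3 with ESRRA, MXRA8 and MYL4 (r 0.998, 0.996 and 0.996). ID2 correlated best with TNFAIP3, MYOF and SATB1 (r 0.999, 0.996 and 0.996). With 6 libraries and so many genes, correlations of this size are readily found, and they are given as a description.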

How the data were processed

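mRNA libraries of Rh30 cells, 3 per group, were analysed. Reads were trimmed by the authors with BBDuk, and STAR 2.7.9a served for alignment to hg38 and counting by gene. FastQC 0.11.8, MultiQC 1.8 and DESeq2 1.44.0 also stand in the submitters' processing notes. What was deposited is a signal, reads per gene divided by a factor of the library, called normalized counts here. Divided by the smallest value above 0, 100% of values in each library were whole reads (within 0.01), on which edgeR called 465 genes and limma 475 on the deposited values. Of 35269 rows, 1 lacked a name and was not used (6 reads or fewer in any library).

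limma 3.58.1 in R 4.3.3 (lmFit, eBayes with trend, two-sided, Benjamini-Hochberg) was run on log2(normalized count + 1) where a gene's mean was 10 or more. The added 1 understates changes of low genes. Alternatives were other pseudocounts, filters and scalings, a replicate block, each library left out, edgeR 4.0.16, DESeq2 1.42.0 and removal of GC content and length trends. Genes named were all members and, in each list, the most abundant gene and up to 3 showing the largest change among called genes whose mean was 100 or more, and, for the most abundant member of each family, the 3 genes most correlated with it. TCF3, TCF4, ACTA1, NOG, SMAD6, BAMBI, GREM1, CHRDL1, BMPR1A and the genes most correlated with ID2 fall outside this rule. They were chosen after their values were seen. The members and lists were chosen with earlier results of these data known. Lengths, GC content and positions came from GENCODE 44, and 98.4% of the tested genes had them. On simulated reads with 181 tested genes changed by 0.5 (log2), limma recovered 120 with 7 false calls among 13924 genes. The simulated reads held no outlying library and no trend with GC content, unlike these data. Changes smaller than 0.5 were not simulated. Nothing in the labels says how far the replicates are independent cultures, so that p-values measure the spread between these samples, and intervals from counts of 0 cover counting error only.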

Additional observations from a re-analysis of the deposited data

How the results depend on the processing

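ID2 kept its direction and its call under each alternative fit, with log2 fold changes from 0.906 to 0.988 with single libraries left out. The cause of the changes below was not tested, apart from fewer samples or genes where the alternative brings these. The call of ID2 rests on 184 to 485 reads per library, and MYF5 and MYF6 were too low for a test at this depth.

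The number of members called was 1 (3.41% of all genes), and it was 2 with edgeR (ID1 and ID2; 3.34%), 3 with DESeq2 (also MEF2D; 4.47%), 4 with GC content and length trends taken out (also MYOG; 11.2%) and 1 to 3 with single libraries left out, 3 without DMSO replicate 1 (ID1, ID2 and MEF2D; 13.1%) and 2 without DMSO replicate 2 (ID1 and ID2; 4.85%). ID1 passed with edgeR (0.279), DESeq2 (0.274) and these trends taken out (0.218), and ranged from 0.219 to 0.325 with single libraries left out. MEF2D passed with DESeq2 (0.244) and these trends taken out (0.21) and ranged from 0.195 to 0.261. MYOG passed with these trends taken out (0.193) and ranged from 0.0819 to 0.324, the lowest without DMSO replicate 1. ID3 went from 0.0593 to 0.233 and MEF2A from -0.152 to -0.0388.

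MYOD1 changed sign with TMM scaling (0.00713), quantile normalization (0.0109), edgeR (0.00828), DESeq2 (0.00428) and without DMSO replicate 2 (0.0311), DMSO replicate 3 (0.00385) or drug-treated replicate 3 (0.0178), and ranged from -0.0597 to 0.0311. MEF2C changed sign with these trends taken out (0.0261) and when DMSO replicate 1 was left out (0.0435), with a range from -0.11 to 0.0435.

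All genes called numbered 475 (176 higher, 299 lower, 37.1% higher), 277 with quantile normalization (47.7% higher), 33 with eBayes without trend (90.9% higher), 180 with the replicate block (43.9% higher), 1555 with these trends taken out (42.3% higher), and 19 to 1823 with single libraries left out, namely 1823 without DMSO replicate 1, 242 without DMSO replicate 3 and 19, 23 and 46 without drug-treated replicate 1, 2 or 3 (78.9%, 69.6% and 60.9% higher). No pairing by replicate number was seen, with correlations of deviations of -0.098, -0.027 and -0.027. With so few samples these values cannot exclude pairing, and the labels do not say whether samples were paired. With the block ID2 alone among the members passed.

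With quantile normalization the medians of the MEF2 cofactors and of the upstream regulators were 0.123 and 0.0973, and with single libraries left out they went from 0.0584 to 0.102 and from 0.0196 (without drug-treated replicate 2) to 0.0821 (without drug-treated replicate 3). The E-box and bHLH antagonists went from 0.0352 (without drug-treated replicate 1) to 0.113 (without DMSO replicate 2). The BMP and SMAD list went from -0.0156 (without DMSO replicate 2) to 0.0465 and the target genes from 0.112 (without DMSO replicate 1) to 0.222, and the target genes had 0.0912 with a mean of at least 100. By transcript length, RPKM with DMSO was 10.7 for MEF2A, 15.8 for MEF2C, 8.22 for MEF2D, 72.8 for ID1, 8.08 for ID2 and 262 for ID3.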
